A study of Oryctolagus cuniculus with 4 samples.

Results

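Integrins, laminins and focal adhesion genes were examined in rabbit ear hypertrophic scar (HS), an overgrown fibrotic scar of the skin. The genes were taken from the expression table by symbol alone, as integrin chains and an integrin binding protein, laminin chains, nidogen, perlecan, dystroglycan, talins, kindlins, ILK, parvin, paxillin, vinculin, zyxin, tensins and the FAK-related kinase. This gave 42 of 13913 genes. No measured value entered the match, but the list of symbols was chosen with earlier results of these data known. Of the 42, 40 had a mean of at least 1 unit and were tested. ITGB1BP2 and LAMA1 were below it. Several partners of these proteins, including ITGB1, ITGB2, ITGB4, LAMC1 and PTK2, were not analysed here.

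The scRNA-seq libraries came from the ventral epidermis and dermis of scars on the ears of female wild-type rabbits (Oryctolagus cuniculus), bought at 10 to 12 weeks of age, with no strain given. The scars of the HS group (2 libraries) received no treatment. Those of the drug-loaded MNs group (2 libraries) received 3 weekly patches, from day 22 after wounding, of separating microneedles (MNs), whose tips stay in the skin and release a 5-fluorouracil derivative from a prodrug. All tissues were taken on day 43. Each library came from 1 scar tissue. The study calls the samples biologically independent but does not say whether the tissues of a group came from separate rabbits, so the p-values measure only the spread between these libraries. Scars that had been given drug-free MNs were not analysed here, so the drug and the needles cannot be told apart.

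Integrins are paired receptors, each made of an alpha and a beta chain, that hold a cell to the matrix around it. Laminins are trimers of an alpha, a beta and a gamma chain that build the sheet of the basement membrane under the epidermis and around vessels, muscle and nerve, and nidogens and perlecan tie that sheet to collagen IV. Inside the cell, talins and kindlins switch integrins on, and ILK, parvins, paxillin, vinculin, zyxin and tensins join them to actin in focal adhesions. In scars this machinery carries the pull of fibroblasts on collagen, and in the epidermis it anchors basal keratinocytes.

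Relative expression is given in units, 1000000 of which make up a library. Levels are compared between libraries for the same gene, not between genes. The depth of the libraries was unknown, and HS replicate 1 stood apart from the other libraries. Over all genes tested, its median absolute log2 difference from each of the other 3 was 0.33 to 0.37, and that among the other 3 was 0.22 to 0.28, with HS replicate 2 nearer to both treated libraries than to HS replicate 1. Over all genes tested, the median log2 fold change of drug-loaded MNs over HS was 0.12, which is the level against which the fold changes are to be read. Over the 40 tested members this difference was 0.28 within the HS pair of libraries and 0.27 within the treated pair. It was between 0.31 and 0.51 for the 4 pairs of libraries that cross the groups.

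**Figure D1:**
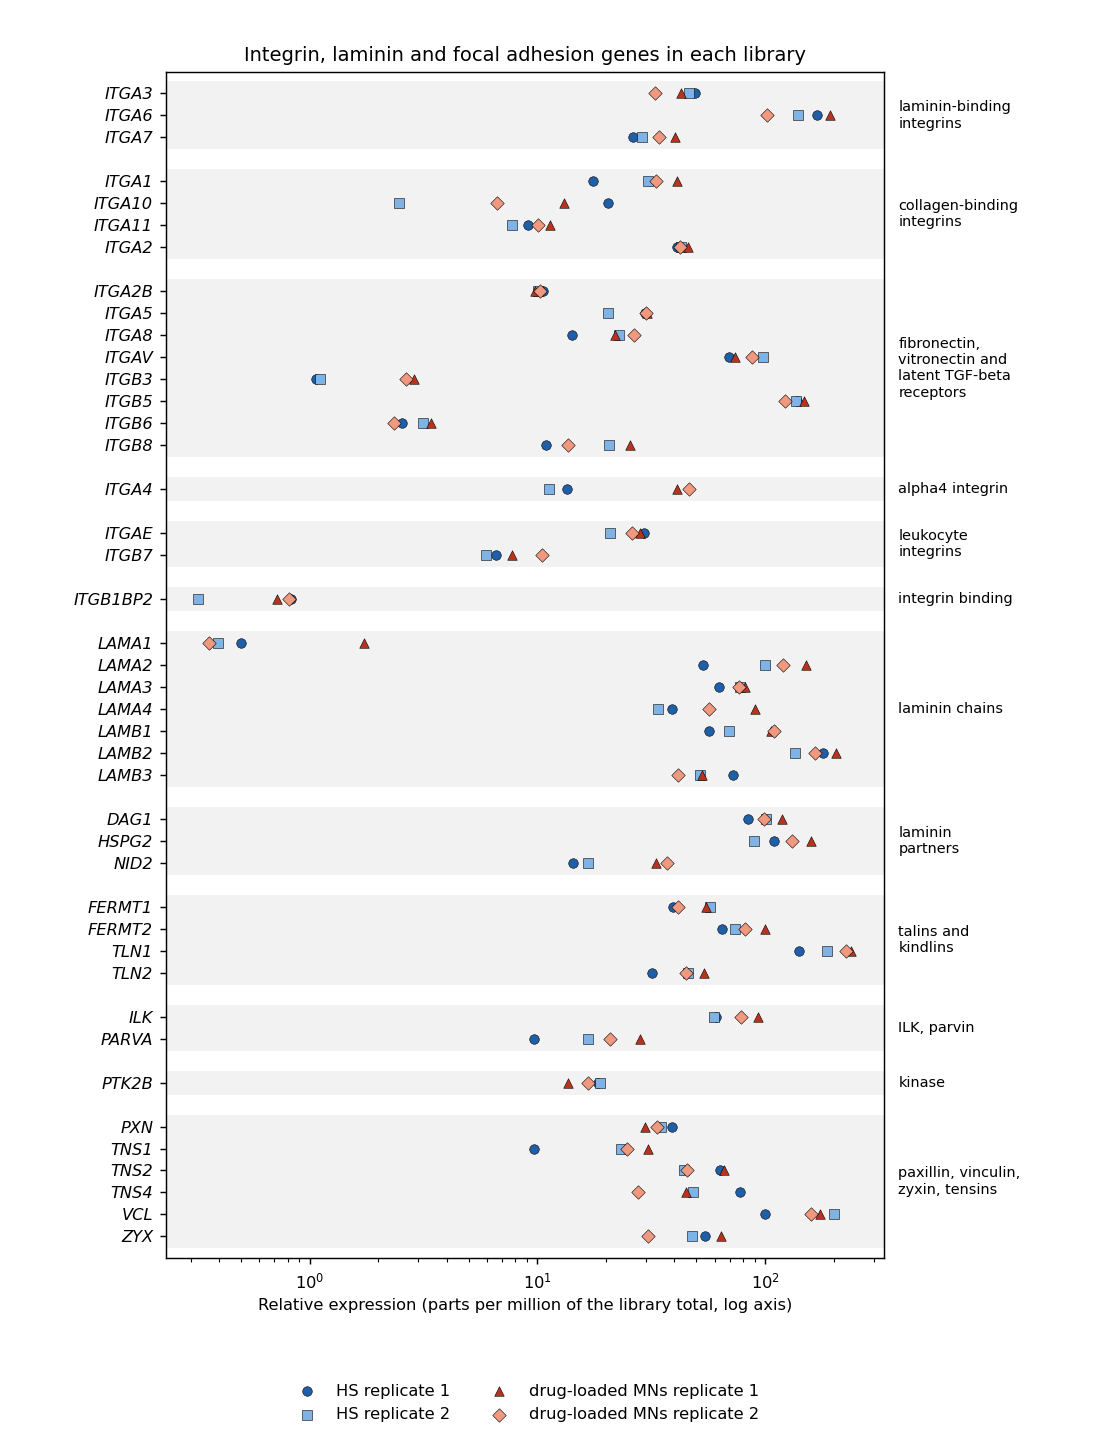
Relative expression of the 42 genes in each library, on a log axis in units, 1000000 per library, grouped by role; each point is 1 library. ITGA4 and NID2 show the drug-loaded MNs libraries well to the right of both HS libraries, while ITGA10 and VCL show the HS libraries far apart.

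Drug-loaded MNs and HS were compared to see how the treatment bears on gene expression in the scar. Members of the dermal and vascular basement membrane (LAMA2, LAMA4, LAMB1, NID2 and HSPG2), the alpha4 integrin chain ITGA4, ITGB3 and PARVA had higher relative expression in drug-loaded MNs. TNS4, a tensin of epithelial cells, had lower relative expression. None of the 40 tested members passed an adjusted p of 0.05 in limma, a threshold that 0.0428% of the 9348 genes tested passed. At an unadjusted p under 0.05, 8 of 40 members were higher in drug-loaded MNs, which is 20% against 7.26% of all genes tested. 1 of 40 was lower, which is 2.5% against 1.39%. In all, 30 members had a positive and 10 a negative log2 fold change, with a median of 0.27. Over all genes tested, 6043 were positive and 3305 negative.

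The groups did not overlap, with drug-loaded MNs higher, in 17 of 40 members, 42.5% against 26.6% of all genes tested. They did not overlap, with drug-loaded MNs lower, in 4 of 40, 10.0% against 11.2%. The shares of members on the higher side were thus above the background, and the share with drug-loaded MNs lower was close to it. Under median ratio scaling the median of all genes was -0.01 and that of the members 0.13, with 25 members positive and 15 negative. The genes tested at an unadjusted p under 0.05 then stood at 497 higher and 278 lower, in place of 679 and 130, and the members at 7 and 1. The genes whose groups did not overlap stood at 1721 higher and 1921 lower, in place of 2489 and 1045, and the members at 15 and 7. With 1 library left out, the median log2 fold change moved in the members and in all genes tested. Without HS replicate 1 it was 0.24 in the members against 0.043 in all genes, and without HS replicate 2 0.35 against 0.19. Without drug-loaded MNs replicate 1 it was 0.15 against 0.063, and without drug-loaded MNs replicate 2 0.34 against 0.18.

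**Figure D2:**
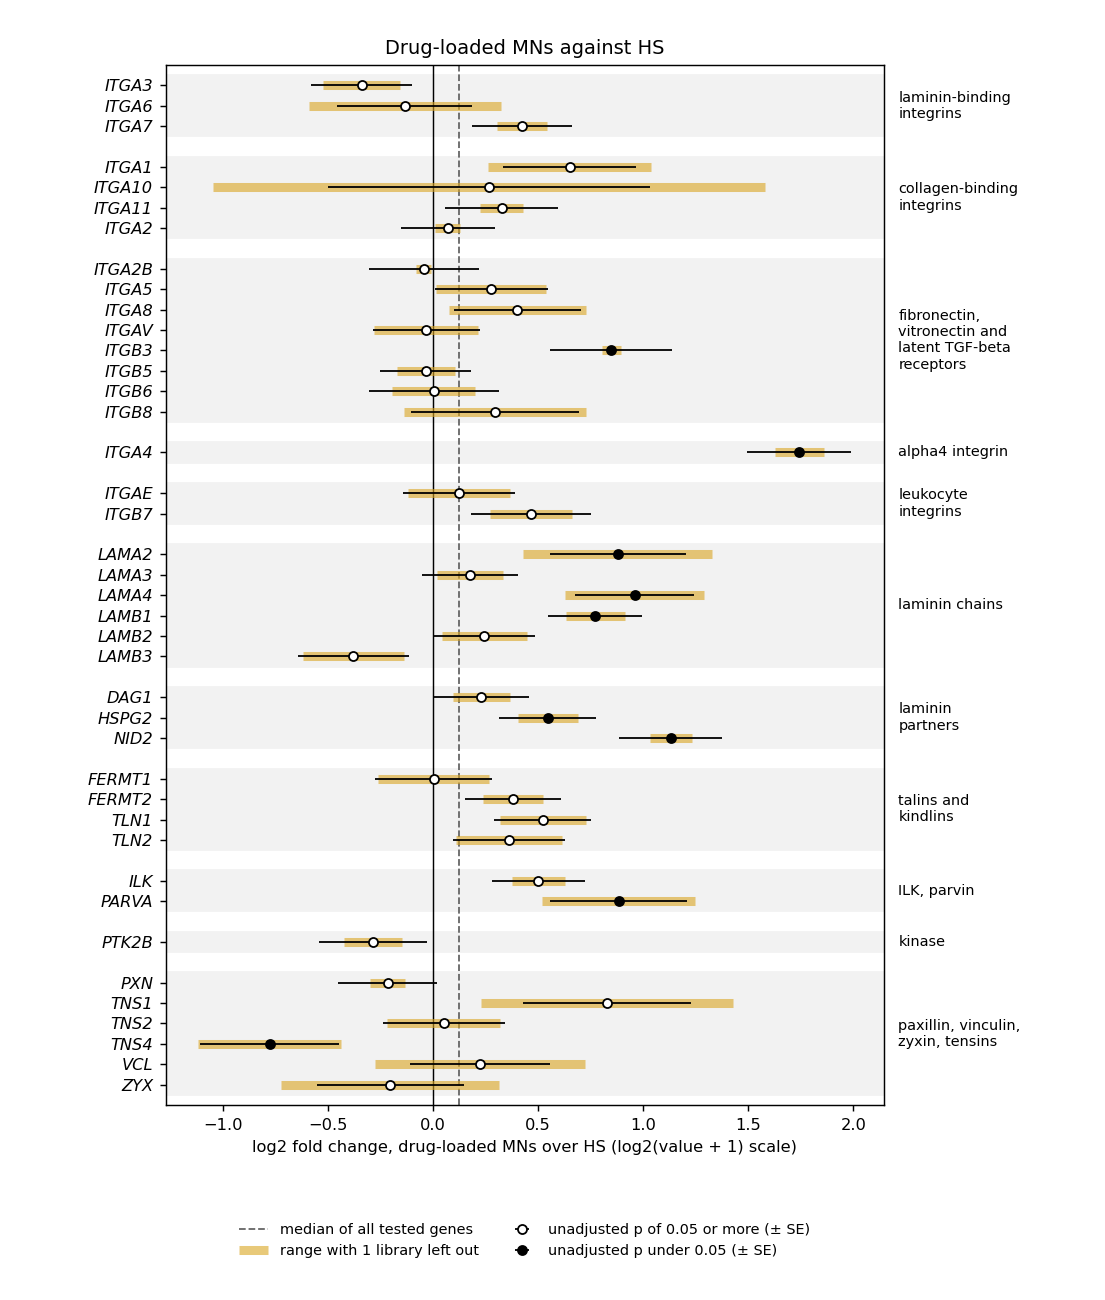
Log2 fold change of drug-loaded MNs over HS for the 40 tested genes (points, with the standard error from limma as bars), with the range over the 4 fits that leave out 1 library as a band; the dashed line is the median of all tested genes, 0.12. ITGA4 lies farthest to the right at 1.74 with a narrow band, TNS4 lies farthest to the left at -0.78, and the band of ITGA10 spans both sides of 0.

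ITGA4 encodes the alpha4 chain, which pairs with beta1 or beta7 and binds VCAM1 and fibronectin, and is best known from leukocytes. Its level was 13.5 and 11.3 units in the HS libraries and 41.1 and 46.3 units in the drug-loaded MNs libraries. Both treated libraries were thus well above both untreated ones, and the libraries within a group lay close together. The mean went from 12.4 ± 1.52 to 43.7 ± 3.71 units (SD, n = 2 each), a ratio of 3.53. The log2 fold change was 1.74 (SE 0.25, adjusted p 0.209 in limma). It was the smallest unadjusted p of the members, at 1.6e-04 in limma, and the fold change stayed between 1.49 and 1.86 in 14 alternatives. Some of these, namely the filters, eBayes settings and replicate block, leave a fold change as it is. The log2 fold change of ITGA4 was 1.826 when the first treated library was left out and 1.657 when the second was. It was 1.858 without HS replicate 1 and 1.625 without HS replicate 2. ITGA4 overlaps CERKL and LOC100357477 in the RefSeq gene list of the rabbit. CERKL stood at 1.54 and 1.04 units in HS and at 0.762 and 0.984 units in drug-loaded MNs, and LOC100357477 was not analysed here. Among the other members with an overlapping named gene were TLN1 (CREB3), ILK (TAF10), ITGA1 (PELO), ITGA11 (CALML4) and ITGAE (HASPIN), and how shared reads were counted was not stated.

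Leukocyte markers were also higher in drug-loaded MNs. Because each value covers all cells of a library, more cells of a type and more RNA per cell cannot be told apart. The 5 pan leukocyte markers, none of them at 0, summed to 233 and 188 units in HS and to 255 and 291 units in drug-loaded MNs. At an unadjusted p under 0.05, 4 of 5 were higher, against 7.26% of all genes tested. The fifth, CD53, had a log2 fold change of -0.39 and made up most of the sum in HS. The macrophage list, with 7 of its 8 genes in the table, summed to 90.6 and 105 units in HS and to 222 and 219 units in drug-loaded MNs, with all 7 higher at an unadjusted p under 0.05. Of the T cell list 2 of 5 genes were in the table, with sums of 3.46 and 3.24 units against 12.1 and 8.76 units. Measured inside each library against the mean log2 level of the pan leukocyte markers, ITGA4 stood at -1.10 and -1.13 in the untreated libraries, against -0.21 and -0.12 in the treated ones. That difference of 0.95 was larger than the pooled SD of 0.0456, and it was 0.65 (pooled SD 0.101) against the 4 markers other than CD53. Against the macrophage markers the difference was 0.46 (pooled SD 0.259), and against the fibroblast markers it was 0.65 (pooled SD 0.225). These ratios to marker lists, here and below, were chosen after the values had been seen, and the part of cell type shares in the level of ITGA4 was not tested.

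The other integrins of leukocytes were ITGB7, the partner of ITGA4 and ITGAE in lymphocytes, and ITGAE, which binds E-cadherin and holds T cells in the epidermis. ITGB7 stood at 6.58 and 5.94 units in HS and at 7.76 and 10.5 units in drug-loaded MNs. The groups did not overlap, but the log2 fold change of 0.47 (SE 0.29, adjusted p 0.745 in limma) was small beside that of ITGA4. ITGAE stood at 29.5 and 20.8 units in HS and at 28.1 and 26.0 units in drug-loaded MNs, inside the range of the HS libraries. The log2 ratio of ITGA4 to ITGB7 was 0.93 and 0.83 in the untreated libraries, against 2.27 and 2.05 in the treated ones. This ratio hardly depends on how a library was scaled, and its difference of 1.28 was the largest of the 13 partner pairs compared (pooled SD 0.122).

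Among the laminins, the chains LAMA2, LAMA4 and LAMB1 were higher in drug-loaded MNs and the epidermal chain LAMB3 was not. The 6 tested chains had a median log2 fold change of 0.51, with 5 positive and 1 negative. Of the 9348 genes tested, 6043 were positive. At an unadjusted p under 0.05, 3 of 6 chains were higher, against 7.26% of all genes tested. LAMA4 is the alpha chain of vessel walls and of adipose and muscle basement membranes. It stood at 39.1 and 34.0 units in HS and at 90.6 and 56.8 units in drug-loaded MNs, so the groups did not overlap, although the treated libraries were well apart. The fold change on the log2 scale was 0.96 (SE 0.28, adjusted p 0.385 in limma), and between 0.63 and 1.29 with 1 library left out. LAMA2, the alpha chain of muscle and nerve laminin that dermal fibroblasts also make, stood at 53.3 and 100 units in HS and at 152 and 120 units in drug-loaded MNs. HS replicate 1 was the low library here. The log2 fold change of 0.88 (SE 0.32, adjusted p 0.485 in limma) was 0.43 without HS replicate 1 and 1.33 without HS replicate 2.

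LAMB1, the beta chain of most dermal and vascular laminins, stood at 57.0 and 69.3 units in HS and at 106 and 110 units in drug-loaded MNs. The mean went from 63.1 ± 8.71 to 108 ± 2.86 units (SD, n = 2 each), which is 0.77 higher on the log2 scale (SE 0.22, adjusted p 0.374 in limma). LAMB2, the beta chain of neuromuscular and vascular basement membranes, stood at 179 and 135 units in HS and at 204 and 167 units in drug-loaded MNs, with overlapping groups. LAMA3 and LAMB3 belong to the laminin that anchors the epidermis. LAMA3 stood at 62.6 and 78.0 units in HS and at 81.4 and 76.8 units in drug-loaded MNs. LAMB3 stood at 72.7 and 51.8 units in HS and at 53.0 and 41.6 units in drug-loaded MNs. LAMA3 thus overlapped between groups, and so did LAMB3, with a log2 fold change of -0.38 (SE 0.27, adjusted p 0.774 in limma). Inside each library, the log2 ratio of LAMA3 to LAMB3 was -0.21 and 0.58 in the untreated libraries, against 0.61 and 0.87 in the treated ones. The difference of 0.55 was only somewhat larger than its pooled SD of 0.417, and the HS libraries were far apart. LAMA1, the alpha chain of early embryonic basement membranes, was at 0.500 and 0.396 units in HS and at 1.74 and 0.362 units in drug-loaded MNs, too low to be tested.

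Of the genes that tie laminins into the sheet or to the cell, NID2 differed most. NID2, a nidogen that links laminin to collagen IV, stood at 14.4 and 16.6 units in HS and at 33.2 and 37.0 units in drug-loaded MNs. Both treated libraries were above both untreated ones, with a ratio of the means of 2.26. The mean went from 15.5 ± 1.61 to 35.1 ± 2.63 units (SD, n = 2 each), which is 1.13 higher on the log2 scale (SE 0.25, adjusted p 0.310 in limma). With 1 library left out it stayed between 1.03 and 1.23.

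HSPG2 and DAG1 encode a ligand and its receptor. HSPG2, the heparan sulfate proteoglycan perlecan, stood at 109 and 89.6 units in HS and at 160 and 132 units in drug-loaded MNs. Its groups did not overlap, and the mean went from 99.5 ± 14.0 to 146 ± 19.6 units (SD, n = 2 each). On the log2 scale this was 0.55 (SE 0.23, adjusted p 0.566 in limma). DAG1, the dystroglycan receptor for laminin and perlecan, stood at 84.0 and 101 units in HS and at 118 and 99.3 units in drug-loaded MNs, with overlapping groups. The fold change on the log2 scale was 0.23 (SE 0.23, adjusted p 0.856 in limma). The log2 ratio of HSPG2 to DAG1 was 0.38 and -0.18 in the untreated libraries, against 0.43 and 0.41 in the treated ones, a treated minus untreated difference of 0.32 (pooled SD 0.278). HS replicate 1 thus lay near the treated libraries in this ratio. LAMA2, another ligand of dystroglycan, over DAG1 had log2 ratios of -0.65 and -0.02 in the untreated libraries, against 0.36 and 0.28 in the treated ones, a treated minus untreated difference of 0.65 (pooled SD 0.317).

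**Figure D3:**
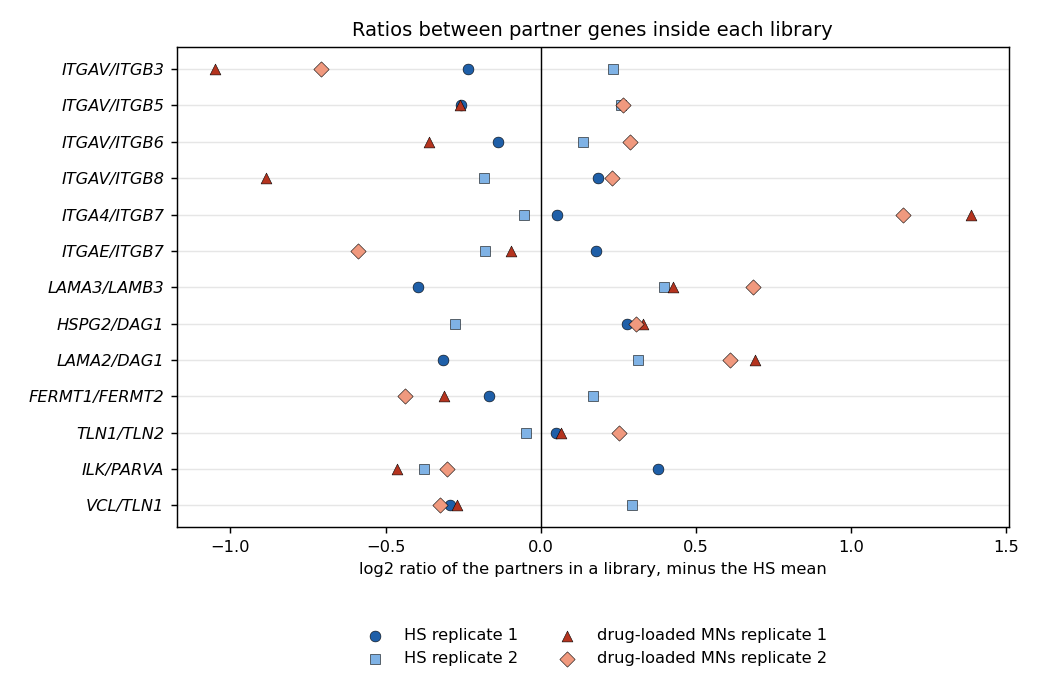
Log2 ratio of partner genes inside each library, shown as the distance from the HS mean of that ratio (horizontal axis, log2 units); each point is 1 library. In ITGA4/ITGB7 the treated libraries lie over 1 log2 unit to the right of the HS libraries, and in 6 of the 13 pairs the groups overlap. In HSPG2/DAG1, TLN1/TLN2 and LAMA3/LAMB3 they are apart only narrowly, and no background share was taken for such ratios.

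The markers of fibroblasts were higher together with these basement membrane genes. The fibroblast list, with 6 of its 8 genes in the table and none at 0, summed to 23000 and 22530 units in HS and to 44680 and 48620 units in drug-loaded MNs. All 6 were higher at an unadjusted p under 0.05, against 7.26% of all genes tested, with a median log2 fold change of 1.12. Most markers of vessel walls and vessels also had positive log2 fold changes. The mural list, with 5 of 6 genes in the table, summed to 380 and 704 units in HS and to 873 and 686 units in drug-loaded MNs. All 5 were positive, 2 of them at an unadjusted p under 0.05, and their median log2 fold change of 0.60 was 0.060 without HS replicate 1. The endothelial list, with 5 of 7 genes in the table, summed to 191 and 189 units in HS and to 146 and 195 units in drug-loaded MNs. Its sum was mostly VWF, with a log2 fold change of -0.50, while the other 4 were positive, CDH5 at an unadjusted p under 0.05. The median was 0.37, and 0.026 without HS replicate 1, a fit in which the median of all genes tested was 0.043. Measured inside each library against the mean log2 level of the fibroblast markers, NID2 differed by 0.0409 between the groups (pooled SD 0.0362), LAMA4 by -0.13 (pooled SD 0.422) and LAMA2 by -0.21 (pooled SD 0.401). LAMB1 differed by -0.32 (pooled SD 0.0370) and HSPG2 by -0.54 (pooled SD 0.303). Relative to fibroblast markers, these genes thus differed by less than in the library as a whole, or were lower in drug-loaded MNs. Against the endothelial markers all 5 were higher in drug-loaded MNs, by 0.85 for NID2 (pooled SD 0.114), 0.68 for LAMA4 (pooled SD 0.564), 0.60 for LAMA2 (pooled SD 0.430), 0.49 for LAMB1 (pooled SD 0.140) and 0.27 for HSPG2 (pooled SD 0.434). Against the mural markers the differences were 0.52 for NID2 (pooled SD 0.398), 0.35 for LAMA4 (pooled SD 0.596), 0.27 for LAMA2 (pooled SD 0.0607), 0.17 for LAMB1 (pooled SD 0.342) and -0.06 for HSPG2 (pooled SD 0.598). The result thus depended on the marker list. The groups did not overlap, with drug-loaded MNs higher, in NID2 and LAMB1 against endothelial and in LAMA2 against mural markers. Against fibroblast markers they did not overlap in LAMB1 and HSPG2, with drug-loaded MNs lower. NID2 against fibroblast markers was nearly level, at -6.488 and -6.496 in HS and at -6.487 and -6.415 in drug-loaded MNs. Its groups thus only just failed to overlap. The part of cell type shares in their levels was not tested.

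The laminin-binding integrins lay on both sides of 0. ITGA3 and ITGA6 hold basal keratinocytes to the epidermal laminin, and ITGA7 is the laminin receptor of muscle and mural cells. ITGA3 stood at 49.4 and 46.3 units in HS and at 42.8 and 33.0 units in drug-loaded MNs. Its groups did not overlap, and the log2 fold change was -0.34 (SE 0.24, adjusted p 0.783 in limma). ITGA6 stood at 170 and 140 units in HS and at 193 and 102 units in drug-loaded MNs, so the treated libraries enclosed the untreated ones. ITGA7 stood at 26.2 and 28.7 units in HS and at 40.4 and 34.2 units in drug-loaded MNs. Both treated libraries were above both untreated ones, with a log2 fold change of 0.42 (SE 0.24, adjusted p 0.719 in limma).

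The summed basal keratinocyte markers differed more between replicates than between groups. The list, with 4 of 5 genes in the table, summed to 8095 and 5578 units in HS and to 7485 and 3938 units in drug-loaded MNs, and replicate 2 was the lower in each group. KRT5 and KRT14 carried the sum. TP63 and COL17A1 went the other way in HS, at 153 and 274 units and at 176 and 392 units. Of the remaining lists, the median log2 fold change was -0.06 for suprabasal keratinocyte, 0.31 for mast cell and 0.79 for cycling genes. Each turned with 1 library left out, ranging from -0.50 to 0.20, from -0.65 to 1.02 and from -0.06 to 1.65. ITGA6, LAMB3 and TNS4 were also lower in replicate 2 of each group. This order was not particular to genes of keratinocytes, since HSPG2, LAMB2 and LAMA4 took it too. FERMT1 and LAMA3, both of the epidermis, were higher in HS replicate 2 than in HS replicate 1. TNS4 stood at 77.6 and 48.5 units in HS and at 45.0 and 27.8 units in drug-loaded MNs, so its groups did not overlap but came close. The log2 fold change was -0.78 (SE 0.33, adjusted p 0.572 in limma). It was -0.44 without HS replicate 1 or with the second treated library left out, -1.11 without HS replicate 2 and -1.12 with the first treated library left out. Measured inside each library against the basal keratinocyte markers, TNS4 was at -3.34 and -4.16 in the untreated libraries, against -4.34 and -4.33 in the treated ones, a treated minus untreated difference of -0.59 (pooled SD 0.411).

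The 4 collagen-binding alpha chains had log2 fold changes with a median of 0.30, and none had an unadjusted p under 0.05. ITGA1, a collagen IV receptor of fibroblasts, mural cells and endothelium, stood at 17.5 and 30.7 units in HS and at 41.0 and 33.3 units in drug-loaded MNs. Its log2 fold change of 0.65 (SE 0.32, adjusted p 0.662 in limma) was 0.26 without HS replicate 1 and 1.04 without HS replicate 2. ITGA2, the collagen receptor of keratinocytes and platelets, was nearly level, at 41.2 and 42.8 units in HS and at 46.1 and 42.3 units in drug-loaded MNs. ITGA11, the collagen I receptor of fibroblasts, stood at 9.06 and 7.71 units in HS and at 11.4 and 10.1 units in drug-loaded MNs, with no overlap.

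ITGA10, the collagen receptor of chondrocytes, had the widest gap between replicates among the tested members. It stood at 20.5 units in HS replicate 1 and 2.48 units in HS replicate 2, and at 13.1 and 6.66 units in drug-loaded MNs. The fold change on the log2 scale was 1.58 without HS replicate 1 and -1.05 without HS replicate 2, so 1 library set its direction. Cartilage lies directly under the ventral dermis of the ear. 7 cartilage genes in the table (MATN3, MATN1, COL9A1, COL11A2, SOX9, CNMD and HAPLN1), chosen after ITGA10 had been seen, summed to 1254 units in HS replicate 1 and 131 units in HS replicate 2. In drug-loaded MNs they summed to 574 and 419 units, the same order of libraries as for ITGA10. The Schwann cell list, with 4 of 5 genes tested, took this order too, with sums of 428 and 84.3 units in HS and of 285 and 154 units in drug-loaded MNs. The part of cartilage or nerve cells in the level of ITGA10 was not tested.

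**Figure D4:**
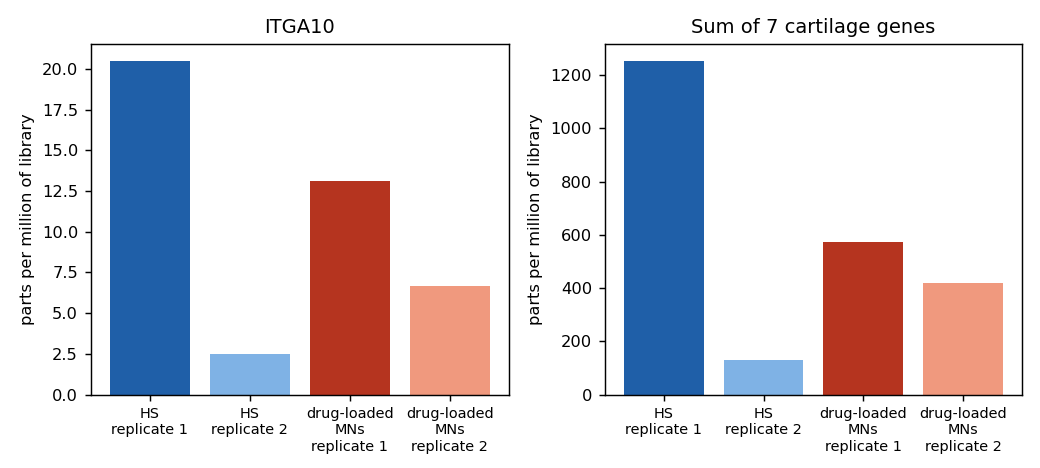
Relative expression of ITGA10 and the summed relative expression of 7 cartilage genes in each library (bars from 0, units, 1000000 per library). Both are highest in HS replicate 1, at 20.5 and 1254 units, and lowest in HS replicate 2, at 2.48 and 131 units.

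The receptors for fibronectin, vitronectin and latent TGF-beta had a median log2 fold change of 0.14 over 8 genes, near that of all genes. ITGB3, the beta chain of the vitronectin receptor of vessels, platelets and osteoclasts, was the exception. It stood at 1.07 and 1.11 units in HS and at 2.88 and 2.64 units in drug-loaded MNs, which is low in every library. The log2 fold change was 0.85 (SE 0.29, adjusted p 0.441 in limma), and from 0.35 with a pseudocount of 5 to 1.26 with a pseudocount of 0.1. Its partner ITGAV stood at 69.4 and 98.1 units in HS and at 73.8 and 88.0 units in drug-loaded MNs. The log2 ratio of ITGAV to ITGB3 was 5.09 and 5.55 in the untreated libraries, against 4.27 and 4.61 in the treated ones, a treated minus untreated difference of -0.88 (pooled SD 0.290). ITGA2B, the platelet chain, was the most even across libraries, at 10.6 and 10.1 units in HS and at 9.74 and 10.3 units in drug-loaded MNs, with a log2 fold change of -0.05 (SE 0.26, adjusted p 0.978 in limma).

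The chains that activate latent TGF-beta with ITGAV did not separate the groups. ITGB5 stood at 139 and 136 units in HS and at 148 and 122 units in drug-loaded MNs. ITGB6, the epithelial chain, stood at 2.55 and 3.14 units in HS and at 3.41 and 2.35 units in drug-loaded MNs. ITGB8 stood at 10.9 and 20.7 units in HS and at 25.6 and 13.6 units in drug-loaded MNs. In each of these genes the treated libraries enclosed, or overlapped with, the untreated ones. ITGA5, the fibronectin receptor, stood at 29.8 and 20.5 units in HS and at 30.5 and 29.9 units in drug-loaded MNs. ITGA8, the nephronectin receptor of smooth muscle and mesenchymal cells, stood at 14.2 and 22.9 units in HS and at 21.9 and 26.5 units in drug-loaded MNs. ITGA5 did not overlap, by a narrow margin, and ITGA8 did.

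Inside the cell, the proteins nearest the integrin tail had median log2 fold changes above that of all genes, at 0.37 for talins and kindlins and 0.69 for ILK with PARVA. The first was 0.19 without HS replicate 1 and 0.23 with the first treated library left out or under median ratio scaling. In these settings the median of all genes tested was 0.043, 0.063 and -0.01. None of the 4 talins and kindlins had an unadjusted p under 0.05. TLN1, the main talin, stood at 141 and 187 units in HS and at 239 and 227 units in drug-loaded MNs. Its mean went from 164 ± 32.9 to 233 ± 8.46 units (SD, n = 2 each), which is 0.52 higher on the log2 scale (SE 0.23, adjusted p 0.599 in limma). The groups did not overlap in TLN1. They overlapped in TLN2, at 31.9 and 45.8 units in HS and at 54.2 and 45.0 units in drug-loaded MNs. The kindlins mark different cells. FERMT1, the kindlin of keratinocytes, stood at 39.6 and 57.5 units in HS and at 55.3 and 41.4 units in drug-loaded MNs. FERMT2, the kindlin of mesenchymal cells, stood at 64.7 and 74.1 units in HS and at 99.7 and 81.7 units in drug-loaded MNs. The epithelial kindlin thus overlapped between groups and the mesenchymal one did not. FERMT1 over FERMT2, as a log2 ratio, was -0.69 and -0.36 in the untreated libraries, against -0.84 and -0.96 in the treated ones, a treated minus untreated difference of -0.38 (pooled SD 0.179).

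ILK is a pseudokinase that binds parvin and the beta tails of integrins. It stood at 60.6 and 59.6 units in HS and at 93.4 and 78.2 units in drug-loaded MNs, with no overlap. PARVA, its actin-binding partner, stood at 9.63 and 16.6 units in HS and at 28.2 and 20.9 units in drug-loaded MNs. Its log2 fold change of 0.88 (SE 0.33, adjusted p 0.485 in limma) was 0.52 without HS replicate 1 and 1.25 without HS replicate 2. ILK over PARVA, as a log2 ratio, was 2.53 and 1.78 in the untreated libraries, against 1.69 and 1.86 in the treated ones, and the groups overlapped.

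The adaptors further along the focal adhesion were spread on both sides of 0, with a median log2 fold change of -0.08 over 6 genes. TNS1, the tensin of fibroblasts and smooth muscle, stood at 9.63 and 23.4 units in HS and at 30.6 and 24.8 units in drug-loaded MNs. Its log2 fold change of 0.83 (SE 0.40, adjusted p 0.654 in limma) rested on HS replicate 1, without which it was 0.23, and it was 1.43 without HS replicate 2. TNS2 stood at 63.7 and 44.0 units in HS and at 66.3 and 45.4 units in drug-loaded MNs, nearly the same pair of values in each group. VCL, vinculin, differed by 2.01 times between the HS libraries, at 100 and 201 units, and stood at 174 and 159 units in drug-loaded MNs. The log2 ratio of VCL to TLN1, to which vinculin binds, overlapped between groups.

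PXN, the scaffold paxillin, stood at 39.2 and 34.9 units in HS and at 29.8 and 33.6 units in drug-loaded MNs, with the groups close but not overlapping. ZYX, zyxin, which moves to stretched actin fibres, stood at 54.6 and 47.8 units in HS and at 63.8 and 30.6 units in drug-loaded MNs. PTK2B, a kinase related to FAK and expressed in leukocytes, stood at 18.4 and 18.9 units in HS and at 13.6 and 16.8 units in drug-loaded MNs. It was lower in both treated libraries, with a log2 fold change of -0.29 (SE 0.26, adjusted p 0.837 in limma). ITGB1BP2, a chaperone-like protein of muscle that binds the beta1 tail, was under 1 unit in each library and was not tested.

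Other genes of the basement membrane were higher in drug-loaded MNs as well. Of 22 listed genes, 13 were tested and 12 had a positive log2 fold change, with a median of 0.72. Of the 9348 genes tested, 6043 were positive. At an unadjusted p under 0.05, 8 of the 13 were higher, against 7.26% of all genes tested, and 0 were lower. None passed an adjusted p of 0.05 in limma. FREM1, a protein of the epidermal basement membrane, stood at 28.2 and 29.6 units in HS and at 65.0 and 63.9 units in drug-loaded MNs, with a log2 fold change of 1.13 (SE 0.22, adjusted p 0.264 in limma). SPARC, a collagen-binding glycoprotein of fibroblasts, had a log2 fold change of 1.29 (SE 0.31, adjusted p 0.314 in limma). COL15A1, a collagen next to vascular basement membranes, had one of 0.89 (SE 0.25, adjusted p 0.352 in limma). With 1 library left out the median of the list ranged from 0.52 to 0.88.

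Genes of the hemidesmosome and of focal adhesions stood nearer to the background. Of 5 listed hemidesmosome and anchoring genes, 2 were tested, DST and COL17A1, with log2 fold changes of 0.23 and 0.05. Of 46 other focal adhesion genes, 28 were tested and 3 were higher at an unadjusted p under 0.05, against 7.26% of all genes tested. At that threshold 0 were lower, and the median was 0.23. That median was 0.068 without HS replicate 1 and 0.062 with the first treated library left out. The median of all genes tested was 0.043 and 0.063 in these 2 fits. These 3 were APBB1IP, ARHGEF6 and ASAP1, with log2 fold changes of 0.92, 0.81 and 0.62. APBB1IP, which carries RAP1 to talin in leukocytes, stood at 2.43 and 3.31 units in HS and at 7.13 and 5.54 units in drug-loaded MNs.

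Of 26 listed ligands of integrins, 15 were tested and 5 were higher at an unadjusted p under 0.05, against 7.26% of all genes tested. At that threshold 0 were lower, and the median log2 fold change was 0.57. It was 0.91 without HS replicate 1 and 0.26 with the first treated library left out. COL3A1, a fibrillar collagen of fibroblasts, stood at 5717 and 4657 units in HS and at 14790 and 13580 units in drug-loaded MNs. SPP1, the macrophage and matrix protein osteopontin, stood at 6.16 and 4.16 units in HS and at 15.6 and 10.8 units in drug-loaded MNs. The log2 fold changes were 1.46 for COL3A1 (SE 0.28, adjusted p 0.264 in limma), 1.39 for COL1A1 (SE 0.34, adjusted p 0.316 in limma) and 1.20 for SPP1 (SE 0.32, adjusted p 0.344 in limma). COL1A1, COL3A1 and COL1A2, 3 of the 5 called, are also on the fibroblast list. VCAM1 and FN1, picked after their values were seen because they are ligands of ITGA4, overlapped between the groups. VCAM1 stood at 6.69 and 14.2 units in HS and at 9.06 and 24.7 units in drug-loaded MNs. FN1, fibronectin, stood at 505 and 180 units in HS and at 488 and 293 units in drug-loaded MNs.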

How the data were processed

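Single-cell libraries (10x Genomics 3′ chemistry) were processed upstream in Seurat, and the submitters' processing notes name Cell Ranger 2.1.1. They also list the mouse build mm10, whereas the table holds rabbit Ensembl identifiers, so the build is uncertain. The table deposited by the authors, although named for FPKM, held a signal per gene and library whose columns each summed to 10000. How cells were combined, and whether a batch correction named in the methods had acted on these values, was not stated. Low values were not whole multiples of 1 step (18.7% to 21.6% lay within 0.1 of one), so no count test was run, and depth and doublets could not be examined.

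Values were rescaled to 1000000 per library. The 9348 genes whose mean reached 1 unit were fitted as log2(value + 1) with lmFit and eBayes with trend (limma 3.58.1, R 4.3.3), with two-sided p-values adjusted by Benjamini-Hochberg over all of them. Fold changes on this scale understate the change of low genes. Exact permutation tests were not used, since 2 libraries per group allow no two-sided p under 0.333. The fit was run on simulated data whose noise depended on the expression level alone. It recovered 30 of 50 log2 changes of 1, with 12 false calls among 192. No library that stood apart was simulated, so this does not measure what the fit misses here. Alternatives were other scalings, pseudocounts, filters, eBayes settings, a replicate block and each library left out.

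The members, their roles, the marker, pathway and pair lists were chosen with earlier results of these data known. Of 40 pairs of partners, 13 had both genes tested. Fitted statistics are given for HSPG2, DAG1, members with an unadjusted p under 0.05 and, per role, the largest positive and negative fold change (19 genes), plus up to 3 genes per pathway list; other members are given by their values. Symbols were matched to the RefSeq list of mOryCun1.1 for neighbours only: 42 members matched, and 10 overlap another coding gene.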

Additional observations from a re-analysis of the deposited data

How the results depend on the processing

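The 19 members with fitted statistics kept their direction in every alternative that gave a value. The filters, eBayes settings and replicate block leave a fold change as it is, so only the scalings, pseudocounts and left-out libraries could turn one. Most of these members were picked for a small unadjusted p or for the largest fold change of their role in these same data. ITGB3 had none with a minimum mean of 5. The number of genes past an adjusted p of 0.05 over the whole table (4) was 0 with median ratio scaling, with quantile normalization, with a total that leaves out abundant genes, with a pseudocount of 5 and with no filter, 1 with eBayes without trend, and 0 to 75 with 1 library left out (0 without HS replicate 1, and 48 or 75 when the first or the second treated library was left out). The number of members past it (0) was 0 to 1 with 1 library left out, the 1 being ITGA4, and the members at an unadjusted p under 0.05 (9) numbered 3 to 14. A fit with 1 library left out takes its spread from the group that keeps 2 libraries, so its counts are not evidence of a difference. With the replicate number as a replicate block, 241 genes and 3 members (ITGA4, NID2 and LAMA4) passed. The same-numbered libraries share only a number. The correlation of their deviations across genes was 0.221, and 2 pairs cannot establish a pairing.

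With 1 library left out, role medians ranged from -0.52 to 0.32 for laminin-binding integrins, 0.13 to 0.55 for collagen-binding integrins, -0.018 to 0.24 for fibronectin, vitronectin and latent TGF-beta receptors and -0.25 to 0.30 for paxillin, vinculin, zyxin and tensins. The median of all genes tested ranged from 0.043 to 0.19 in the same fits. Quantile normalization gave 0.074 for collagen-binding and 0.11 for leukocyte integrins, against -0.02 for all genes. Median ratio scaling gave 0.016 for the fibronectin group and 0.36 for laminin chains, against -0.01 for all genes. The cause was not tested. What depth limits could not be measured.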
